A study of Homo sapiens with 26 samples.

Results

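The 8 genes described here are p53 targets of the growth arrest and early response programme: BTG2, GADD45A, SFN, PLK2, PLK3, TP53INP1, ZMAT3 and GDF15. They are 8 of 20163 protein-coding genes of the GRCh37 annotation and were chosen by name. Peaks of the histone marks H3K27ac and H3K4me1 were taken where they overlapped a gene body or the 50 kb to each side of it. Merged over all lists of a mark, 96 of 87603 H3K27ac regions and 70 of 110276 H3K4me1 regions lay in these windows.

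p53 is a transcription factor that MDM2 keeps at a low level, and Nutlin-3a, which blocks the contact of MDM2 with p53, lets it accumulate without DNA damage. p53 binds DNA as a tetramer, at elements made of a pair of ten-base motifs, and among its targets are genes that stop the cell cycle, genes that act in DNA repair or cell death, and genes that restrain p53 itself. H3K27ac is an acetylation found at active promoters and enhancers, and H3K4me1 is a methylation typical of enhancers and of the flanks of promoters.

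HCT116 is a human colon carcinoma line with wild-type p53. The cells were parental HCT116 (WT, a name that does not refer to p53) and a derivative of it labelled HCT116_RAD21, called the RAD21 line here. Per the study's methods, all alleles of the cohesin subunit RAD21 carry a degron in that line, and an auxin analogue removed the protein ahead of Nutlin-3a. The labels give the auxin analogue for no sample, and peaks cannot show the amount of RAD21. H3K27ac was profiled by ChIP-seq in WT cells given the solvent DMSO (0 h) or Nutlin-3a for 1 h or 10 h and in the RAD21 line at 0 h (DMSO) and 1 h. H3K4me1 was profiled in WT cells only, at 0, 1 and 10 h. Each of these 8 groups had 2 lists of peaks, which made 16 lists of 26 samples, and the other 10 samples were input libraries without a list. The labels number the lists of a group as replicates, and the study calls them biological replicates. How the cultures were kept apart is not given in the sources used here, so the errors and p-values measure the spread between lists.

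The lists hold no number of reads, and the read numbers in the study's supplement were not used here. The H3K27ac lists held 31640 to 49127 peaks and the H3K4me1 lists 84492 to 92943. Active promoters of an epithelial line were present: 9 of 12 epithelial marker promoters, among them EPCAM and KRT8, were called in all 10 H3K27ac lists, whereas KRT20, CDX1 and VIL1 were called in none. Of 11 markers of other cell types, 10 had no promoter peak in any H3K27ac list, and SOX2 had one in 2 lists.

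The 10 H3K27ac lists fell into 2 forms. The peak names of both WT 0 h lists and of WT 1 h replicate 1 lack the word input, and those of the other 7 lists and of all 6 H3K4me1 lists contain it. Per the study's methods, peaks were called against an input library, and whether that holds for these 3 lists is not given in the sources used here. For the same 3 lists, the numbers of peaks in the study's supplement are not those of the deposited lists. Its numbers for the RAD21 line at 0 h have the replicates in the opposite order, and some peak names carry another replicate number than the label, so replicate numbers here are those of the labels. The median fold enrichment at the 8 promoters was 7.2 to 7.77 in the 3 lists without the word and 25.4 to 79.81 in the 7 lists with it, and the median peak width there was 1522 to 1553 bp against 2924 to 4523 bp. Peaks were therefore ranked within their own list by the caller's -log10 p, and the position of a region is its percentile, the share of the list's peaks ranked below its strongest peak. For tests, the ranks of the regions called in every list of a mark were turned into normal scores, so that a change is in standard deviations of the ranks and relative to the other regions tested. Percentiles count all peaks of a list and normal scores only these shared regions, so the order of lists can differ between them. WT 10 h and 0 h differ in the form of the name, and so do the RAD21 line and WT at 0 h, whereas the lists of the RAD21 line share a form. WT at 1 h is the only group with both forms, so a fit with the form as a term rests on that pair of lists. The fits pool the spread between lists over all groups of a mark. With the form as a term, a change within the RAD21 line keeps its value and only the pooled spread differs. Leaving out a WT 1 h list alters a comparison that does not use it only through that spread and the regions ranked. Values from the fit with the form as a term are given beside the results. For WT, so are comparisons between lists of a single form, whose spread comes from all lists kept, of both forms. In bulk cells, a mark on fewer cells and less of it per cell cannot be told apart.

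All 8 promoters were called in all 10 H3K27ac lists and in all 6 H3K4me1 lists. Of 34 other p53 targets fixed as a list, 30 had a promoter called in all 10 H3K27ac lists and 3 in none. The median percentile of the 8 promoters was 82.5 and 82.0 in the WT 0 h lists, 85.1 and 89.5 at 1 h, and 91.0 and 91.6 at 10 h. The RAD21 line had 87.3 and 88.5 at 0 h and 92.1 and 91.8 at 1 h. The median over all protein-coding promoters with a peak was below that of the 8 genes in each list and also differed between lists: it was 79.8 and 79.1 at WT 0 h, 78.9 and 82.5 at 1 h, and 85.2 and 84.2 at 10 h, and 82.6 to 83.5 in the RAD21 line. The plot of H3K27ac percentiles by list shows how unlike the 8 genes were: ZMAT3 was the lowest of them in the first WT 0 h list, at 60.1, and PLK2 the highest, at 93.5.

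**Figure D1:**
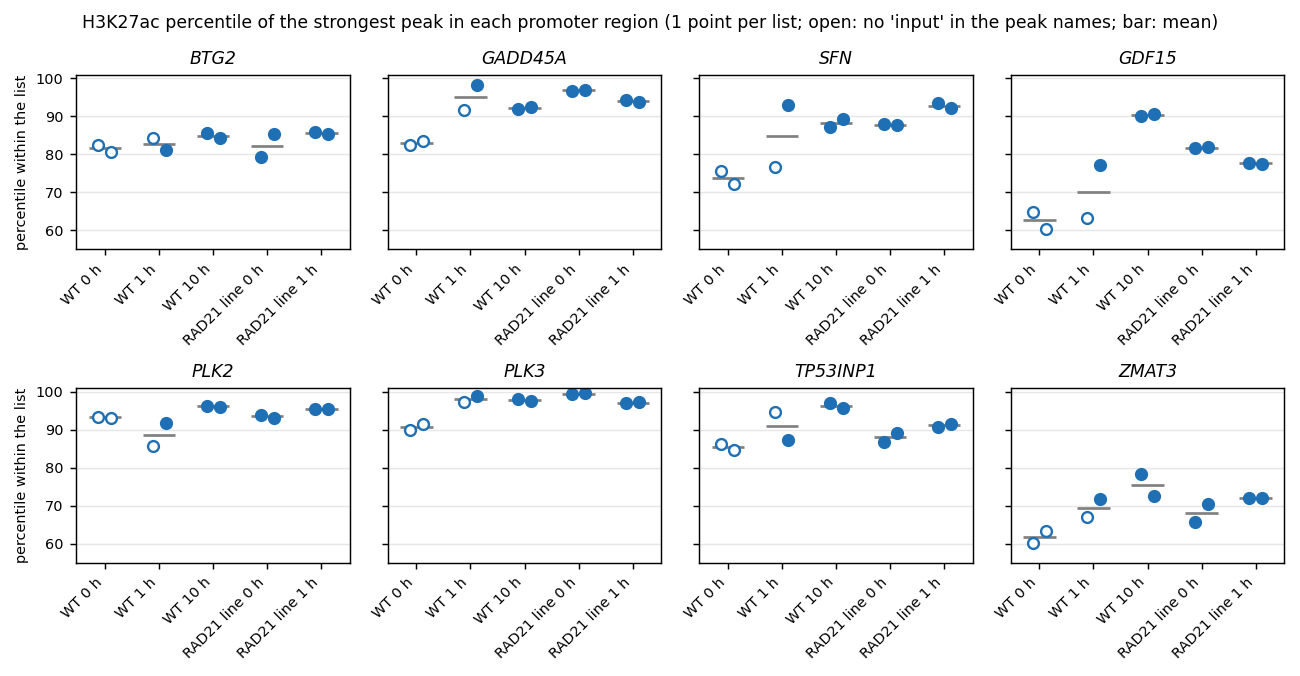
Percentile of the promoter region of each of the 8 genes among the H3K27ac peaks of its list (y axis), by group (x axis), with 1 point per list, open for lists without input in the peak name, and a line at the mean of the 2 lists. PLK3 lay between 89.9 and 99.5 in every list, and GDF15 moved from 64.8 and 60.4 in WT at 0 h to 90.1 and 90.7 at 10 h. These GDF15 values are not of the same peak: at 0 h the strongest peak lay downstream of the start. At 10 h it was the peak at the start in replicate 1 and a single peak over both in replicate 2.

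Sequences that match the p53 consensus inside H3K27ac regions are shown first, because p53 is known to bind such letters and the lists used here hold histone marks only. The pattern was 2 ten-base motifs (3 purines, C, A or T, A or T, G, 3 pyrimidines) with 0 to 13 bases between, at most 2 mismatches in the 20 letters and none at the C and G. The pattern reads the same on either strand. The 6 stretches below hold the best match in a promoter region of 5 genes, and a cluster downstream of GADD45A. Capitals mark the ten-base motifs, positions are GRCh37, and letters run 5′ to 3′ along the strand of the gene.

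GADD45A intron, chr1:68152438-68152497, plus strand: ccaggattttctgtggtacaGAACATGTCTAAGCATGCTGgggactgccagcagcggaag
GADD45A downstream, in an intron of GNG12, chr1:68190996-68191100, plus strand: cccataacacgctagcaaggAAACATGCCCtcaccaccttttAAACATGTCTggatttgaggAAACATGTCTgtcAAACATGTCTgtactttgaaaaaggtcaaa
SFN, in the last part of its exon (3′ UTR), chr1:27190890-27190918, plus strand: AAGCATGTCTgctgggtgtGACCATGTTT
PLK2 upstream, chr5:57758081-57758140, minus strand: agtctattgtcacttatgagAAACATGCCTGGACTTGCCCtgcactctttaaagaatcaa
ZMAT3 intron, chr3:178787956-178788015, minus strand: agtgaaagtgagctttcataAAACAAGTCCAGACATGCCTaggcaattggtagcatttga
GDF15 upstream, chr19:18484737-18484796, plus strand: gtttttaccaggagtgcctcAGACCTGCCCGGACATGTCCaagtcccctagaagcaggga

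The PLK2 and ZMAT3 elements and the GADD45A cluster had 0 mismatches, and the GADD45A intron, SFN and GDF15 elements had 1. In all, the 8 windows held 127 such elements, 36 of them inside H3K27ac regions. By gene, the count inside H3K27ac regions was 13 at GDF15, 9 at SFN, 7 at GADD45A, 4 at PLK3, 2 at PLK2, 1 at ZMAT3 and 0 at BTG2 and TP53INP1. Of the 96 window regions, 21 (21.9%) held an element, beside 12570 of all 87603 regions (14.3%), and the window regions were wider, with a median of 802 bp against 636 bp. Of the 70 H3K4me1 window regions, 24 (34.3%) held one, beside 21.3% of all H3K4me1 regions, with median widths of 1406 and 1262 bp. By length, the H3K27ac window regions held 203 elements per Mb, beside 158 over all regions. For H3K4me1 the densities were 181 and 137 per Mb. No test was made of these shares and densities. Within 250 bp of the median summit, 0 of the 8 promoter regions held an element, beside 4.96% of all H3K27ac regions called in every list. Between 1000 bp before and 200 bp after the reference start, 1 of the 8 genes held one (GDF15), beside 10.7% of all protein-coding genes and 9 of the 34 other p53 targets. A match is a description of letters and does not show that p53 was bound.

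GADD45A (chr1:68150884-68154017, plus strand) encodes a small stress-induced protein that binds the cell cycle kinase complex of mitotic entry and PCNA. Its promoter region (chr1:68148427-68155691) stood at percentile 82.4 and 83.4 in WT at 0 h, 91.8 and 98.2 at 1 h, and 91.9 and 92.5 at 10 h. It stood at 96.7 and 97.0 in the RAD21 line at 0 h and at 94.2 and 93.9 at 1 h. The WT Nutlin-3a lists lay above both WT 0 h lists, and the RAD21 line began above WT and was lower after 1 h. The 1 h change was 0.89 ± 0.17 (SE, limma adjusted p = 0.00232) in WT and -0.33 (adjusted p = 0.173) in the RAD21 line. The difference between the lines in this change was -1.22 ± 0.24 (limma adjusted p = 0.00328) and remained past the threshold when any 1 of the 10 lists was left out. At 10 h the change against 0 h was 0.32 (adjusted p = 0.211), and it passed the threshold without either WT 1 h list (adjusted p = 0.0101 and 0.00994). Within single forms of the peak name, WT 1 h replicate 1 was higher than 0 h by 0.56 ± 0.11 (limma adjusted p = 0.000596), and WT 10 h was lower than WT 1 h replicate 2 (change -0.91 ± 0.11, adjusted p = 1.94e-06). The RAD21 line change passed the threshold without either WT 1 h list (adjusted p = 0.00625 and 0.0062), toward a lower rank.

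The summit of the GADD45A promoter region lay 585 to 1131 bp downstream of the start, inside the gene, in all 10 lists. The intron element printed above begins 1574 bp downstream, at least 452 bp from each summit, and no list had its summit within 200 bp. Further downstream the window reaches into GNG12, a neighbouring gene for a G protein subunit. There, a region 39.6 kb downstream (chr1:68189257-68192322) had no H3K27ac peak in the 4 lists at 0 h. It had peaks at percentile 68.3 and 67.7 at WT 10 h, and weak ones at 19.2 and 4.84 in the WT 1 h lists, which did not overlap each other. RAD21 line 1 h replicate 1 had a peak there at percentile 27.2 and replicate 2 had none. The cluster of 4 ten-base motifs lies in this region, 40132 to 40196 bp downstream of the start, and the summits of both WT 10 h lists lay within 200 bp of it, the nearer at 88 bp. A region 28.5 kb downstream, also in GNG12, had percentiles of 25.2 and 14.4 at 0 h and 60.1 and 63.5 at 10 h. Its change was 1.11 ± 0.34 (limma adjusted p = 0.0392), which was lost without WT 0 h replicate 1 or 2, WT 10 h replicate 1 or 2, or either RAD21 line 1 h list (adjusted p 0.052 to 0.228). The region 51.2 kb downstream fell in the RAD21 line at 1 h, from 54.6 and 63.1 to 42.6 and 41.1 (change -0.93 ± 0.18, limma adjusted p = 0.00198). The strongest region off promoters, 15.0 kb downstream, ranged from 72.9 to 85.9 and passed no test.

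SFN (chr1:27189640-27190947, plus strand) encodes 14-3-3 sigma, a protein of epithelial cells that holds back mitotic entry. Its promoter region (chr1:27186848-27193852) stood at percentile 75.5 and 72.2 in WT at 0 h, 76.8 and 93.1 at 1 h, and 87.1 and 89.4 at 10 h, and in the RAD21 line at 87.9 and 87.8 at 0 h and 93.5 and 92.1 at 1 h. The 2 WT lists at 1 h were far apart, and the one without input in its name lay beside the 0 h lists. The WT 1 h change of 0.54 ± 0.19 (limma adjusted p = 0.0442) was lost without any of 9 of the 10 lists, WT 1 h replicate 1 being the exception. Without WT 1 h replicate 2 it was 0.16 (adjusted p = 0.33). At 10 h the change was 0.40 (adjusted p = 0.143), and in the RAD21 line at 1 h it was 0.41 (adjusted p = 0.113). Both passed without either WT 1 h list (adjusted p 0.00185 to 0.00345). Against WT 1 h replicate 2, within the lists with input, WT 10 h was lower (change -0.50 ± 0.12, limma adjusted p = 0.00262).

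The highest point of the SFN region moved within it. The summit lay 216 and 243 bp downstream of the start, inside the gene's only exon, in the WT 10 h lists, and 2403 to 2490 bp downstream, past the end of the gene, in the other 8 lists. These 2 lists were set apart from the others after the positions were seen. The SFN element begins 1250 bp downstream and lay at least 1021 bp from every summit. The strongest region off promoters, 14.1 kb upstream in an intron of ZDHHC18 (chr1:27173506-27182487), stood at 57.3 and 59.3 at WT 0 h, 58.8 and 71.8 at 1 h, and 83.0 and 82.0 at 10 h, a change at 10 h of 0.64 ± 0.12 (limma adjusted p = 0.00462). The RAD21 line took it from 68.0 and 72.1 to 81.5 and 81.3 at 1 h, a change of 0.63 ± 0.12 (limma adjusted p = 0.00216). This region thus ranked higher at WT 10 h and in the RAD21 line at 1 h, and WT 10 h exceeded WT 1 h replicate 2 by 0.40 (adjusted p = 0.0291). With the form of the peak name as a term in the fit, the 10 h change was 0.49 (adjusted p = 0.176).

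BTG2 (chr1:203274619-203278730, plus strand) encodes an antiproliferative protein that promotes deadenylation of mRNA. Its promoter region (chr1:203273851-203276499) had the smallest range of the 8 over the 10 lists, at percentile 82.6 and 80.7 in WT at 0 h, 84.4 and 81.2 at 1 h, 85.6 and 84.3 at 10 h, and 79.4, 85.2, 86.0 and 85.3 in the 4 lists of the RAD21 line. No H3K27ac comparison called it, and its WT 1 h change was -0.02 (adjusted p = 0.923). A region 22.2 kb downstream, between genes (chr1:203296011-203297408), moved more. It stood at 75.2 and 71.4 at WT 0 h, 60.6 and 60.2 at 1 h, and 80.1 and 78.7 at 10 h. It was lower at 1 h in both lists, with a change of -0.73 ± 0.17 (limma adjusted p = 0.00738), or -0.66 (adjusted p = 0.0689) without WT 0 h replicate 1. Within lists without input the change was -0.44 ± 0.15 (limma adjusted p = 0.0286), and within lists with input WT 10 h exceeded WT 1 h replicate 2 by 0.84 ± 0.15 (limma adjusted p = 0.000224). The same region went in the RAD21 line from 65.6 and 73.1 to 66.9 and 66.8, and passed no 1 h test.

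The polo-like kinases PLK2 and PLK3 differ from PLK1, the kinase of mitosis, in being induced by stress. PLK2 (chr5:57749809-57755966, minus strand) had a single H3K27ac region in its whole window (chr5:57754174-57758965), called in every list. It stood at percentile 93.5 and 93.2 in WT at 0 h, 85.8 and 91.6 at 1 h, and 96.2 and 96.0 at 10 h, and in the RAD21 line at 93.9 and 93.1 at 0 h and at 95.4 in both lists at 1 h. It was the only promoter of the 8 ranked lower at 1 h in WT (-0.37 ± 0.12, limma adjusted p = 0.0306). That call was lost without WT 0 h replicate 1 (adjusted p = 0.14), WT 0 h replicate 2 (0.131) or WT 1 h replicate 1 (0.0578). Within lists without input, the 1 h change was -0.47 ± 0.11 (limma adjusted p = 0.00282), and within lists with input WT 10 h exceeded WT 1 h replicate 2 by 0.37 ± 0.11 (limma adjusted p = 0.0127). The 1 h change differed between the lines by 0.60 ± 0.16 (limma adjusted p = 0.0188), a call lost without WT 0 h replicate 1 or 2, RAD21 line 0 h replicate 2, or either RAD21 line 1 h list (adjusted p 0.0592 to 0.0806). Its summit was fixed, 217 to 258 bp upstream in all 10 lists, and the PLK2 element lay 2188 to 2207 bp upstream, at least 1939 bp from each summit.

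PLK3 (chr1:45266049-45271662, plus strand) had the highest promoter of the 8 in all H3K27ac lists but the pair of WT 0 h, where PLK2 was higher. Its region (chr1:45263768-45277605) also covers the starts of DYNLT4 and BTBD19, so the mark cannot be assigned to PLK3 alone. It stood at percentile 89.9 and 91.6 in WT at 0 h, 97.3 and 98.8 at 1 h, and 98.1 and 97.7 at 10 h, and in the RAD21 line at 99.3 and 99.5 at 0 h and 97.0 and 97.2 at 1 h. The Nutlin-3a lists lay above the 0 h lists in WT and below them in the RAD21 line. In the RAD21 line at 0 h this region was so near the top of its lists that its percentile could hardly rise. The 1 h change was 0.83 ± 0.13 (limma adjusted p = 0.000964) in WT and -0.69 ± 0.13 (adjusted p = 0.0023) in the RAD21 line. The difference was -1.52 ± 0.19 (limma adjusted p = 0.00018) and passed the threshold without any 1 of the 10 lists. The WT 1 h rise was 0.71 ± 0.12 (limma adjusted p = 0.000142) within lists without input. At 10 h in WT the change was 0.62 ± 0.13 (limma adjusted p = 0.00863). It was lost without any 1 of the 4 WT lists compared (0.0562 to 0.0982), and was 0.37 (adjusted p = 0.242) with the form of the peak name as a term. Within lists with input, WT 10 h was lower than WT 1 h replicate 2 (-0.33 ± 0.12, adjusted p = 0.039).

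The PLK3 region holds a peak at the PLK3 start and another 7.3 kb downstream, between PLK3 and BTBD19. These and the same pair at GDF15 were picked out after their values were seen, and no test was made. In WT at 0 h the peak at the start stood at 88.14 and 89.63 and the downstream one at 89.94 and 91.61, and in WT 1 h replicate 1 at 97.32 and 89.45. In the lists with input a single peak covered both, except in the RAD21 line 0 h lists, where the start peak stood at 97.68 and 96.57 and the downstream one at 99.32 and 99.53. Counting the summit where a single peak covered both, the downstream point was the higher in 4 of 4 lists at 0 h and the start in 5 of 6 Nutlin-3a lists, the exception being RAD21 line 1 h replicate 1. The strongest region off promoters, 6.9 kb upstream, was lower in the RAD21 line than in WT at 0 h (-1.15 ± 0.29, limma adjusted p = 0.00747), which rested on RAD21 line 0 h replicate 1, at percentile 22.6 against 58.4 in replicate 2. Without that list it was -0.55 (adjusted p = 0.0819), and without WT 0 h replicate 1 it was -1.12 (adjusted p = 0.0514).

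TP53INP1 (chr8:95938200-95961606, minus strand) encodes a nuclear protein that helps p53 and its kinases toward cell death and autophagy. Its promoter region overlaps the start of NDUFAF6 on the other strand, so the mark belongs to either gene. It stood at percentile 86.2 and 84.6 in WT at 0 h, 94.6 and 87.4 at 1 h, and 96.9 and 95.7 at 10 h, and in the RAD21 line at 86.7 and 89.2 at 0 h and 90.8 and 91.5 at 1 h. Each Nutlin-3a list lay above the 0 h lists of its line by percentile. By normal score, WT 1 h replicate 2 (0.61) lay below both WT 0 h lists (0.69 and 0.63). The 10 h change was 0.67 ± 0.18 (limma adjusted p = 0.0239), lost without any 1 of the 4 lists compared (0.093 to 0.143), and within lists with input WT 10 h exceeded WT 1 h replicate 2 by 0.71 ± 0.12 (limma adjusted p = 5.89e-05). The WT 1 h change was 0.32 (adjusted p = 0.206) and rested on which list was used: without WT 1 h replicate 2 it was 0.68 ± 0.12 (limma adjusted p = 0.000117). In the RAD21 line the 1 h change was 0.26 (adjusted p = 0.299), and it passed without either WT 1 h list (0.0288 and 0.0285). With fold enrichment ranked in place of -log10 p, the 10 h change was -0.33 (adjusted p = 0.506), the opposite direction.

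ZMAT3 (chr3:178677909-178790003, minus strand) encodes a zinc finger protein that binds RNA and alters splicing and stability of transcripts. It was the longest of the 8 genes and the lowest of the promoters in all H3K27ac lists but WT 0 h replicate 2 and WT 1 h replicate 1, where GDF15 was lower. Its promoter region (chr3:178787175-178790338) stood at percentile 60.1 and 63.4 in WT at 0 h, 66.9 and 71.8 at 1 h, and 78.5 and 72.5 at 10 h, and in the RAD21 line at 65.8 and 70.5 at 0 h and 71.9 in both lists at 1 h. By percentile all Nutlin-3a lists lay above the 0 h lists of their line, but by normal score WT 10 h replicate 2 (-0.41) lay below WT 0 h replicate 2 (-0.26). No comparison of this region passed the test, and the changes were 0.18 (adjusted p = 0.365) at WT 1 h, 0.08 (adjusted p = 0.723) at 10 h and 0.24 (adjusted p = 0.223) in the RAD21 line. The ZMAT3 element begins 1624 bp downstream of the start in an intron, inside the promoter region and at least 1446 bp from every summit.

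GDF15 (chr19:18485541-18499986, plus strand) encodes a secreted stress cytokine of the TGF-beta superfamily. The annotation gives it an upstream start, from which distances are counted here, and further starts inside a second region (chr19:18495388-18502704). Among the genes described here, the H3K27ac promoter of GDF15 that is counted, tested and plotted is the region over the upstream start. The second region stands for GDF15 in none of those promoter counts, and which start these cells used was not tested. The region over the upstream start (chr19:18479069-18493040) stood at percentile 64.8 and 60.4 in WT at 0 h, 63.2 and 77.1 at 1 h, and 90.1 and 90.7 at 10 h, and in the RAD21 line at 81.7 and 81.8 at 0 h and 77.7 and 77.5 at 1 h. At WT 10 h this region was above all other lists, with a change of 1.02 ± 0.12 (limma adjusted p = 0.000427), and within lists with input WT 10 h exceeded WT 1 h replicate 2 by 0.66 ± 0.13 (limma adjusted p = 0.000317). The WT 1 h change was 0.21 (adjusted p = 0.209), or 0.34 (adjusted p = 0.0317) without WT 1 h replicate 1, and that of the RAD21 line was -0.17 (adjusted p = 0.318). The second region followed at a lower rank, from 62.3 and 64.0 at WT 0 h to 84.8 and 84.0 at 10 h (0.57 ± 0.14, limma adjusted p = 0.0143), a call lost without any 1 of the 4 lists compared (0.0648 to 0.102). In the RAD21 line it fell from 73.5 and 74.2 to 63.1 and 65.9 at 1 h (-0.45 ± 0.14, limma adjusted p = 0.0271), lost without any 1 of its 4 lists (0.0592 to 0.196).

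The strongest region off promoters at GDF15, 9.9 kb upstream over an exon of PGPEP1 (chr19:18471977-18478399), moved in opposite directions in the lines. It stood at percentile 77.4 and 79.0 in WT at 0 h, 85.6 and 93.0 at 1 h, and 98.0 and 97.7 at 10 h, and in the RAD21 line at 94.9 and 94.0 at 0 h and 82.9 and 85.7 at 1 h. It rose in WT by 0.55 ± 0.13 at 1 h (limma adjusted p = 0.00742) and by 1.29 ± 0.13 at 10 h (adjusted p = 0.000124), and fell in the RAD21 line (-0.72 ± 0.13, adjusted p = 0.00152). The 1 h changes differed by -1.27 ± 0.19 (limma adjusted p = 0.000492), which passed without any 1 of the 10 lists. The WT 1 h call was lost without WT 0 h replicate 1 (0.50, adjusted p = 0.0758). Within single forms of the name, WT 1 h replicate 1 exceeded 0 h by 0.39 ± 0.12 (limma adjusted p = 0.0139) and WT 10 h exceeded WT 1 h replicate 2 by 0.57 ± 0.12 (limma adjusted p = 0.000694). A weaker region 45.9 kb upstream rose at WT 10 h (0.88 ± 0.27, adjusted p = 0.0404), a call lost without any of 7 lists (adjusted p 0.0562 to 0.318).

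Inside the GDF15 promoter region, the balance between a peak at the upstream start and a peak 5.3 to 6.0 kb downstream, in an intron, differed by treatment. In WT at 0 h the start peak stood at 47.14 and 46.96 and the downstream peak at 64.8 and 60.37. At WT 1 h they stood at 63.15 and 51.72 in replicate 1 and at 77.14 and 73.56 in replicate 2, and at 90.07 and 84.64 in WT 10 h replicate 1. The RAD21 line had 69.79 and 81.71 in replicate 1 and 76.01 and 81.8 in replicate 2 at 0 h, and 77.68 and 71.26 in replicate 1 at 1 h. The downstream peak was the higher in 4 of 4 lists at 0 h and the start peak in 6 of 6 Nutlin-3a lists, which held in both lines and both forms of peak name. In WT 10 h replicate 2 and RAD21 line 1 h replicate 2 a single peak covered both, with its summit 511 and 410 bp upstream of the start. The GDF15 element lies 765 to 784 bp upstream, and the summit came within 200 bp of it in 3 of 10 lists, the nearest at 15 bp in WT 1 h replicate 1.

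**Figure D2:**
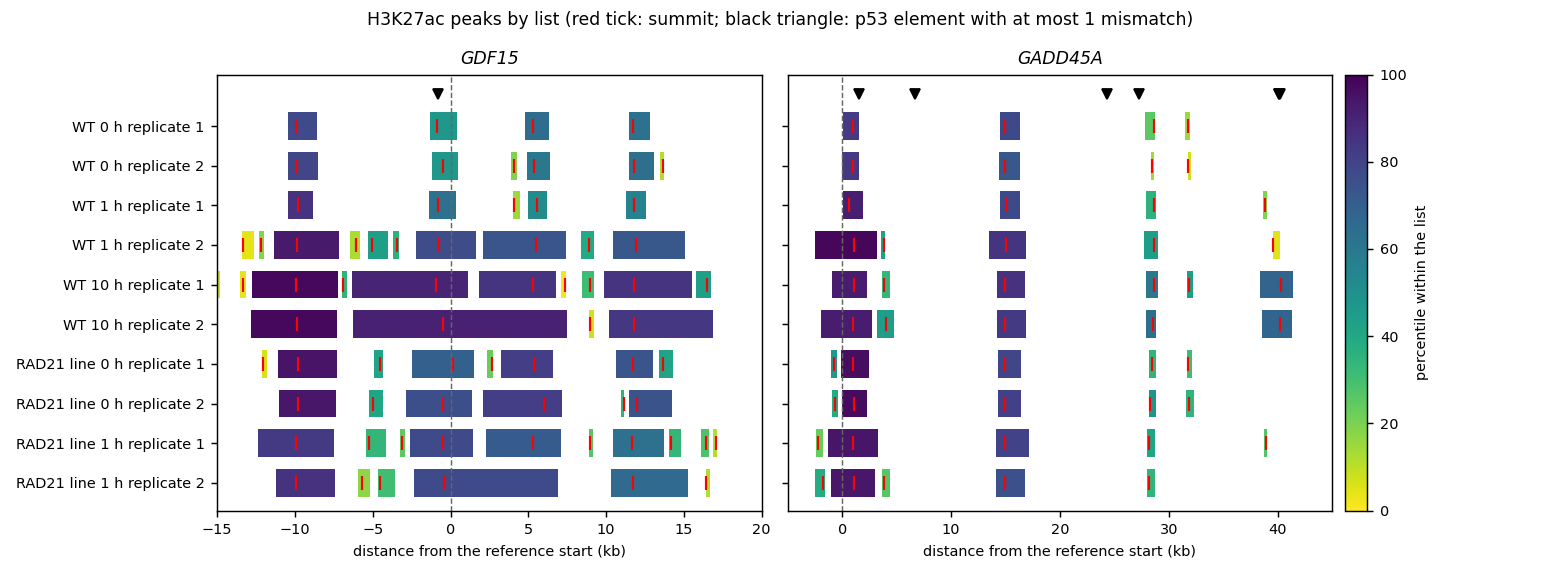
H3K27ac peaks of each list (rows) around the reference start of GDF15 and of GADD45A, as distance from that start in kb (x axis), with darker blocks for higher percentiles, red ticks at summits and black triangles for p53 elements with at most 1 mismatch. The region about 40 kb downstream of GADD45A is at percentile 68.3 and 67.7 in the WT 10 h rows, and the GDF15 peaks are wider in the lists with input than in the 3 upper rows without it.

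Counted together, 3 of the 8 promoters ranked higher and 1 lower at WT 1 h (GADD45A, PLK3 and SFN against PLK2), where 14.3% of all 18757 regions tested were called higher and 14.8% lower. The median change was 0.27 over the 8 promoters, 0.06 over the 30 tested promoters of other p53 targets (9 higher, 3 lower) and 0.00 over all protein-coding promoters. At WT 10 h, 3 ranked higher (GDF15, PLK3 and TP53INP1) and 0 lower by limma, where 9.70% of all regions were called higher and 8.56% lower. At an unadjusted p under 0.05, 0 were lower at 10 h as well. With the form of the peak name as a term, 2 were higher (GDF15 and TP53INP1), where 2.06% of all regions were called higher and 2.34% lower. In that fit the 10 h changes of GADD45A and SFN were -0.36 and -0.34 (adjusted p = 0.21 and 0.284). The median change was 0.36, beside 0.15 over the other p53 targets (6 higher, 0 lower, and 2 lower before adjustment) and -0.08 over all protein-coding promoters. Within lists without input, WT 1 h replicate 1 was higher at 3 of the 8 promoters (GADD45A, PLK3 and TP53INP1) and lower at 1 (PLK2), where 15.8% and 16.2% of regions were called. Within lists with input, WT 10 h exceeded WT 1 h replicate 2 at 3 (GDF15, TP53INP1 and PLK2) and was lower at 3 (GADD45A, SFN and PLK3), where 17.1% and 16.2% were called. Both within-form comparisons were chosen after the data were seen, and a lone list is assumed in them to vary like the other groups. That of WT 1 h replicate 1 with 0 h is the same fit as leaving out WT 1 h replicate 2, not a further result. In both, the spread and the regions tested come from all lists kept, of both forms.

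In the RAD21 line, 0 of the 8 promoters were called higher at 1 h and 1 lower (PLK3), where 14.4% of all regions were called higher and 13.4% lower. At an unadjusted p under 0.05, 1 was higher and 1 lower. With the form of the peak name as a term, SFN, PLK2 and TP53INP1 were called higher and GADD45A and PLK3 lower, where 22.7% and 19.1% of regions were called. Those changes have the values of the main fit, and only the pooled spread differed. The median change of the 8 was 0.23, that of the other p53 targets 0.33 (13 higher, 2 lower) and that of all protein-coding promoters 0.07. Subtracting the WT change at 1 h from that of the RAD21 line gave 1 promoter higher (PLK2) and 2 lower (GADD45A and PLK3), where 11.7% and 11.0% of regions were called. The other p53 targets had 7 higher and 0 lower by limma, also 0 lower before adjustment, with a median of 0.30, whereas the median of the 8 was -0.09. At 0 h the RAD21 line exceeded WT at 3 promoters, GADD45A (0.94 ± 0.17), PLK3 (1.25 ± 0.13) and GDF15 (0.58 ± 0.12), and was lower at 0, also before adjustment, where 16.8% and 20.7% of regions were called. These limma adjusted p-values were 0.000948, 1.7e-05 and 0.00283. With the form of the peak name as a term, 2 promoters were higher in the RAD21 line (PLK3 and TP53INP1), where 11.8% of regions were called higher and 13.2% lower, and the GADD45A and GDF15 differences were 0.27 (adjusted p = 0.236) and 0.31 (adjusted p = 0.227). The 1 h comparisons of both lines and the difference between them share the same 0 h lists.

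**Figure D3:**
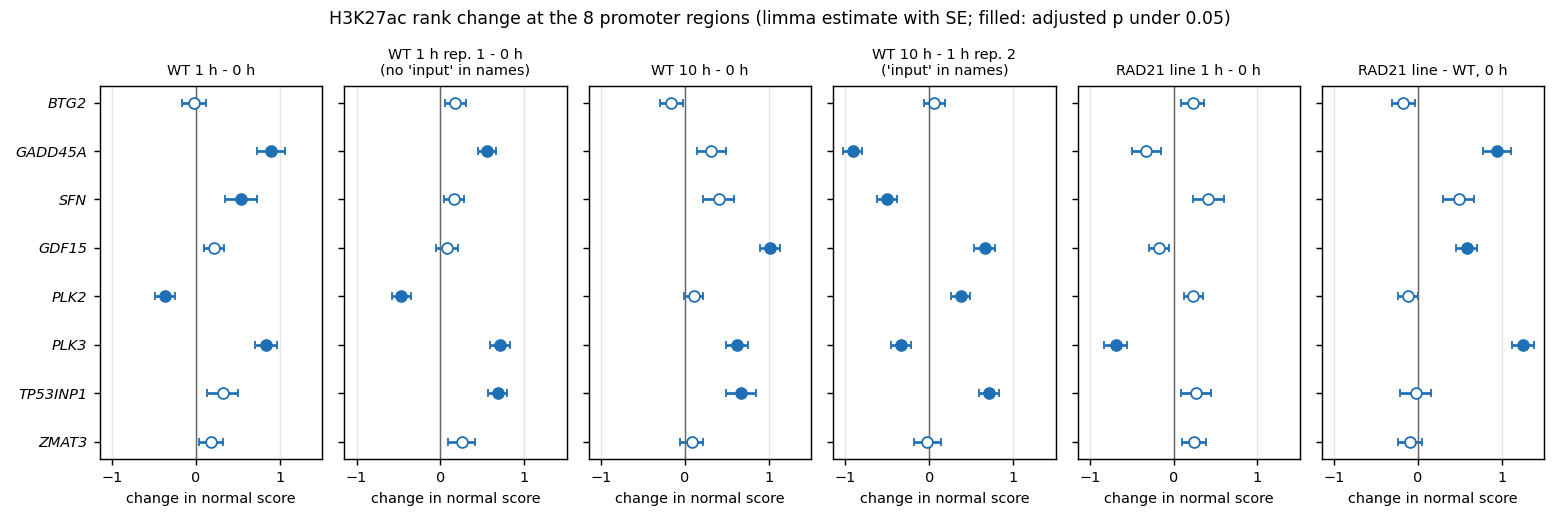
Change of the H3K27ac normal score at the promoter of each of the 8 genes (x axis, in standard deviations of the ranks, bars show the standard error) for WT 1 h and 10 h and the RAD21 line at 1 h against 0 h, for the 2 comparisons within a form of peak name and for the RAD21 line against WT at 0 h. Filled points passed limma's adjusted threshold of 0.05. GADD45A and PLK3 have WT 1 h points at 0.89 and 0.83 and RAD21 line points at -0.33 and -0.69.

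Over all 28 window regions that were called in every H3K27ac list, 7 were higher and 3 lower at WT 1 h, where 14.3% and 14.8% of all regions tested were called. The counts were 8 and 1 at WT 10 h, beside 9.70% and 8.56% of all regions. In the RAD21 line at 1 h they were 3 and 6, beside 14.4% and 13.4%. Without WT 0 h replicate 1 the WT 1 h counts were 3 and 0. Without any 1 of the 4 lists compared, the 8 at WT 10 h became 3 or 4, and without either WT 1 h list the 3 in the RAD21 line became 7. Over all regions tested, the numbers called moved in the same direction in each of these cases. Some of the window regions lie at the promoters of neighbouring genes. The promoter of SSBP4, 42.1 kb downstream of the GDF15 start, stood at 74.7 and 74.3 at WT 0 h, 85.4 and 98.4 at 1 h, 92.1 and 93.3 at 10 h, 99.8 and 99.9 in the RAD21 line at 0 h, and 98.1 and 96.8 there at 1 h. Its change was 1.09 at WT 1 h (limma adjusted p = 0.00694), lost without either WT 0 h list (0.0572 and 0.0526), 0.74 at 10 h (adjusted p = 0.0586) and -1.18 in the RAD21 line (adjusted p = 0.00419), lost without replicate 2 of either time in that line (0.0527 and 0.0571). The 10 h change passed without either WT 1 h list (2.09e-05 and 1.85e-05). The promoter of LSM4, 51.8 kb upstream of GDF15, rose at 1 h by 0.54 in WT (adjusted p = 0.00566, or 0.0682 without WT 0 h replicate 1) and by 0.66 in the RAD21 line (adjusted p = 0.00176). That of ISYNA1, 63.2 kb downstream, rose by 0.42 in the RAD21 line (adjusted p = 0.0162), which was lost without replicate 2 of either time in that line (0.135 and 0.136). In the SFN window, at WT 1 h, the promoter of ZDHHC18 rose by 0.88 (adjusted p = 0.00108) and that of GPATCH3 fell by 0.55 (adjusted p = 0.0057, or 0.0795 without WT 0 h replicate 1). In place of -log10 p, the ranks of fold enrichment gave 0 calls in either direction over all 18757 regions by limma at WT 1 h, in the RAD21 line and for their difference, although 3706, 2667 and 2608 regions had an unadjusted p under 0.05. The calls of those 3 comparisons therefore hold for the ranking by -log10 p. With 2 lists against 2, an exact permutation test could not go below a two-sided p of 0.333, so every p-value here is from the limma fit over all regions.

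Peaks also appeared and disappeared. A region counted as gained when both lists of the later or the RAD21 group had a peak and neither list of the other had. At WT 10 h, 14 of 96 window regions (14.6%) were gained and 0 lost, beside 11.4% and 1.90% of all regions. They were 5 at PLK3, 4 at GDF15, 3 at SFN and 2 at GADD45A, at percentiles of 7.3 to 68.3 in the 10 h lists, and those at GADD45A 39.6 kb downstream, SFN 15.6 kb downstream, PLK3 3.6 kb upstream and GDF15 51.2 kb downstream were the ones that reached percentile 50 in both. The other 10 lay 4.0 kb upstream and 4.6 kb downstream of SFN, 48.6, 47.2, 46.1 and 42.6 kb upstream of PLK3 in KIF2C, 53.6 kb downstream of GADD45A in GNG12, and 8.9, 57.3 and 59.7 kb downstream of the GDF15 start, in an intron of GDF15 and in SSBP4. The 4 stronger ones also had a weaker peak in WT 1 h replicate 2, a list with input, and all of them but the GADD45A region had a peak in at least 1 of the RAD21 line 0 h lists, which have input too. At WT 1 h, 1 was gained (the GADD45A region 39.6 kb downstream) and 2 lost (that 31.8 kb downstream of GADD45A and that 20.6 kb upstream of GDF15), beside 1.51% and 1.32% of all regions. In the RAD21 line at 1 h, 2 were gained (30.8 and 18.3 kb upstream of GDF15) and 1 lost, beside 4.61% and 2.87%. At 0 h the RAD21 line had 3 that WT lacked (24.1 kb upstream of SFN and 51.2 and 57.3 kb downstream of GDF15) and lacked 1 that WT had (20.6 kb upstream of GDF15), beside 5.28% and 2.83%. The GADD45A region 31.8 kb downstream was lost at 1 h in both lines, from 15.0 and 7.1 in WT and 30.9 and 35.0 in the RAD21 line. Without WT 1 h replicate 1, a list without input, the 1 region gained at WT 1 h became 21. Without RAD21 line 1 h replicate 1 or 2 the 2 gained there became 10 or 12, and without RAD21 line 0 h replicate 1 or 2 the 1 lost became 5 or 6. No test was made of these counts.

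H3K4me1 ranked high at 4 of the 8 promoters in every list. The promoter percentiles were 98.2, 97.6, 96.2, 96.4, 95.5 and 98.4 for GADD45A over the 6 lists from 0 h to 10 h, and PLK3 stayed between 99.1 and 99.9, SFN between 94.6 and 99.2 and GDF15 between 97.6 and 99.0. The merged regions of GDF15, SFN and PLK3 were 57933, 32246 and 24676 bp wide, so their values are those of the strongest peak of a broad domain. BTG2 lay between 71.2 and 82.3, TP53INP1 between 81.7 and 89.6 and ZMAT3 between 62.5 and 72.7.

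PLK2 had the largest H3K4me1 change of the 8 promoters. Its promoter region (chr5:57753031-57758949) stood at 67.8 and 68.3 at 0 h, 70.4 and 69.2 at 1 h, and 86.8 and 88.6 at 10 h. The 10 h change was 0.80 ± 0.18 (limma adjusted p = 0.0677), just past the threshold when regions called in at least 2 lists were tested (0.67, adjusted p = 0.0351). Next came SFN at 10 h with 0.45 ± 0.16 (limma adjusted p = 0.359). By limma, 0 of 43 H3K4me1 window regions were called higher or lower at 1 h, where 0.291% and 0.304% of all 60476 regions were called, and 0 at 10 h, where 0.615% and 0.0231% were called. At an unadjusted p under 0.05 there were 4 at 1 h and 5 at 10 h, and with fold enrichment ranked 2 and 5. Of the other p53 targets, 1 of 30 was higher at 10 h. Of 70 window regions, 1 was gained and 4 lost at 1 h, beside 3.30% and 1.75% of all regions, and 0 gained and 2 lost at 10 h, beside 2.63% and 2.29%. The region gained at 1 h lay 44.4 kb upstream of SFN, and 1 of those lost lay 41.3 kb downstream of it. The 2 lost at 10 h, 41.0 kb downstream of the BTG2 start and in the ZMAT3 gene, were lost at 1 h too and were weak at 0 h, at percentiles of 1.2 to 29.3. Without WT 0 h replicate 2 the counts lost were 8 and 10.

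**Figure D4:**
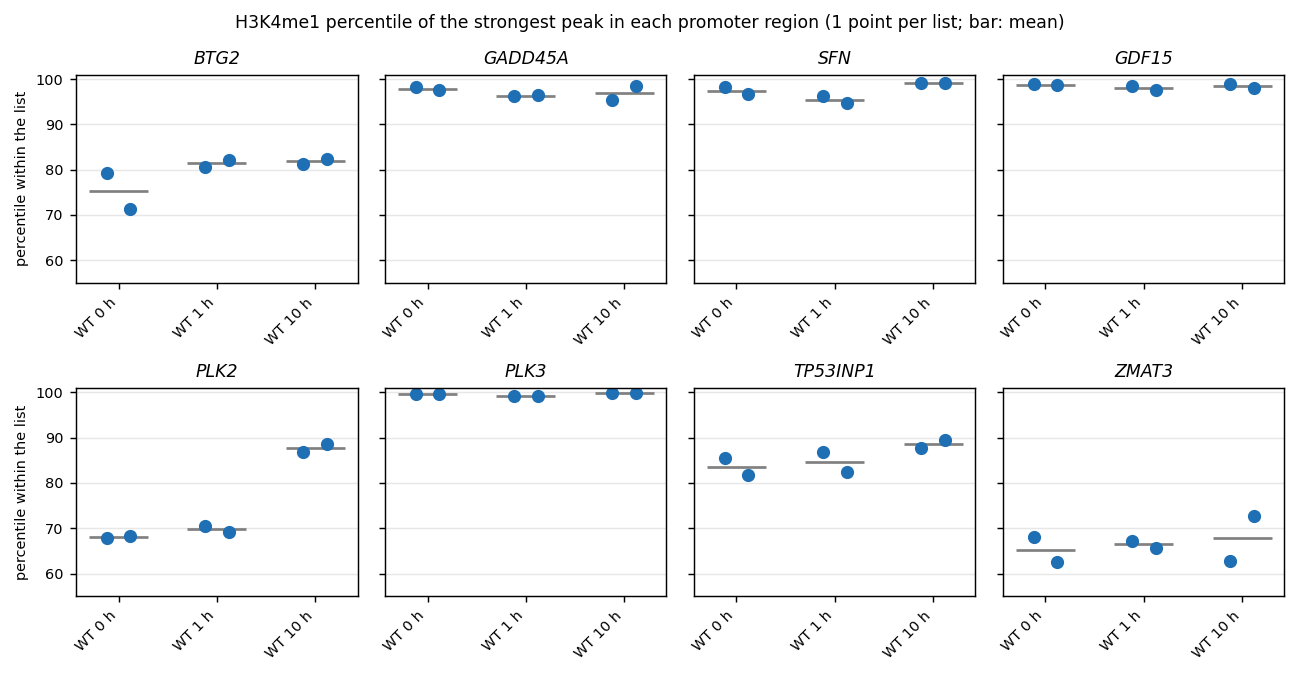
Percentile of the promoter region of each of the 8 genes among the H3K4me1 peaks of its list (y axis), by time in WT cells (x axis), with 1 point per list and a line at the mean of the 2 lists. PLK2 is at 67.8 and 68.3 at 0 h and at 86.8 and 88.6 at 10 h, and GADD45A, SFN, PLK3 and GDF15 stay above 94.

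The 8 H3K27ac profiles were not alike. Over the 10 lists, 7 with and 3 without input in the peak name, Pearson's r between the normal scores of 2 members ranged from -0.571 for BTG2 and GDF15 to 0.874 for GADD45A and PLK3, and GADD45A and SFN had 0.703. The promoter most like each gene outside its window, of about 10614 compared, was SH3GLB2 for BTG2 (r = 0.946), UEVLD for GADD45A (0.976), GPX4 for SFN (0.971), NECTIN2 for PLK2 (0.963), KCNK6 for PLK3 (0.979), EHBP1 for TP53INP1 (0.887), AMOTL2 for ZMAT3 (0.906) and PDE4B for GDF15 (0.943). None of these 8 was among the 34 other p53 targets. These are descriptions over 10 lists, with no test.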

How the data were processed

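Peaks of H3K27ac (10 lists) and H3K4me1 (6 lists) were analysed, and 10 input libraries have no list. Per the study's methods and the submitters' processing notes, the authors trimmed reads with Trim Galore 0.6.6, mapped them with Bowtie2 2.3.2 to GRCh37 and called peaks per library with MACS2 2.2.7.1. The deposited columns used were the fold enrichment over local background (a ratio), -log10 p, -log10 q and the summit. Fold and -log10 p depend on read depth, which the lists do not hold, so neither was compared between lists directly.

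Peaks that overlapped in any lists of the same mark formed 1 region. A promoter was 1000 bp before to 200 bp after a start of the GRCh37 annotation. Normal scores of the rank by -log10 p were fitted with limma 3.58.1 in R 4.3.3 (empirical Bayes with trend) over the regions called in every list of a mark, with all groups of the mark sharing the spread, and p-values were adjusted by Benjamini-Hochberg over all those regions (threshold 0.05). On simulated data with 200 regions changed by 1, 65% to 67% were recovered for the H3K27ac comparisons of 2 groups, 30.5% for the difference between lines and 0% for H3K4me1, so H3K4me1 changes of that size at the 8 genes could be missed. Of the calls made on the simulated data, 2.92% to 7.59% were false for the H3K27ac comparisons of 2 groups, above the nominal share for 3 of the 4. For the difference between lines it was 6.15%. The share of false calls among the calls on the real lists was not measured. The study's own test, on read counts, could not be run on peak lists. For each gene the promoter region, the strongest region off promoters and every region called, gained or lost are named, except 2 window regions that are counted but not reported here. The genes and lists were chosen with earlier results of these data known. Alternatives left out each list, ranked fold enrichment, required -log10 q of 5, kept regions in at least 2 lists, narrowed the window to 10 kb, and added a replicate block or the form of the peak name. No sequence is printed for TP53INP1.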

Additional observations from a re-analysis of the deposited data

Results flagged for a closer look

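Of the 28 H3K27ac window regions tested, 8 had a 1 h change that differed between the RAD21 line and WT by limma, beside 11.7% of all regions higher and 11.0% lower, and 7 of these 8 are given. Each value is the RAD21 line change after subtraction of the WT change, in normal score units, and the form of the peak name differs between the WT 0 h lists and those of the RAD21 line. The difference was -1.22 at the GADD45A promoter, -1.52 at the PLK3 promoter and -1.27 at the region 9.9 kb upstream of GDF15, each with opposite directions in the lines in every list. It was 0.60 at the PLK2 promoter.

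Another 3 lie at promoters of neighbouring genes. The difference was -2.27 at SSBP4, 42.1 kb downstream of the GDF15 start, -0.68 at ZDHHC18, 36.2 kb upstream of SFN, and 0.83 at GPATCH3, 37.1 kb downstream of SFN. The PLK3 and SSBP4 promoters were already near the top of the RAD21 line lists at 0 h, which left little room for a higher percentile. With fold enrichment ranked, 0 of these differences passed. Groups of 2 lists are too small for a check of single outlying lists.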

How the results depend on the processing

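Of 679 values for single regions under alternatives other than leaving out a list, 613 stayed on their side of the threshold. Of 1330 values with a list left out, 1223 did. Changes of direction were counted only where the main or the alternative value passed the threshold. The 613 and 1223 can therefore include changes of direction between values that did not pass. Ranking fold enrichment changed the most values of single regions: the window regions called were 0 higher and 0 lower at WT 1 h, for the RAD21 line and for the difference between the lines, and 5 higher at WT 10 h. A direction changed, with the main or the alternative value past the threshold, in 3 cases: the TP53INP1 promoter at WT 10 h with fold enrichment ranked (-0.33), and the RAD21 line against WT at 0 h with the form of the peak name as a term at the BTG2 region 22.2 kb downstream (0.062) and at the TP53INP1 promoter (0.70). That term also gave 3 window regions higher at WT 10 h and 7 in the RAD21 line, where 2.06% and 22.7% of all regions were called higher. With regions in at least 2 lists, 2 were lower at WT 10 h, 4 higher for the difference between the lines, 8 higher for the RAD21 line than WT at 0 h, and 1 higher for H3K4me1 at 10 h. With a window of 10 kb, which holds fewer regions, the counts higher and lower were 4 and 1 at WT 1 h, 1 and 3 in the RAD21 line and for the difference, 0 lower at WT 10 h, and 1 lower for the RAD21 line than WT at 0 h.

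Window regions gained and lost at -log10 q of at least 5 were 0 and 0 at WT 1 h, 4 gained at WT 10 h, 1 and 0 in the RAD21 line and again in it against WT at 0 h, 0 and 0 for H3K4me1 at 1 h, and 0 lost at 10 h. Where peaks had to cover a share of 0.5 of the region, they were 2 and 0, 23 and 2, 8 gained, 11 gained, 2 and 2, and 1 and 1 in the same order. With a window of 10 kb they were 0 and 0, 4 gained, 0 and 0, 0 and 0, 0 and 1, and 1 lost. The cause of these shifts was not tested.

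With each list left out in turn, the window regions called higher and lower ranged from 3 to 10 and 0 to 4 at WT 1 h, 3 to 12 and 1 to 1 at WT 10 h, 2 to 7 and 4 to 7 in the RAD21 line, 1 to 5 and 5 to 10 for the difference, and 5 to 6 and 1 to 5 for the RAD21 line against WT at 0 h. H3K4me1 had 0 throughout. Those gained and lost ranged from 1 to 21 and 2 to 4 at WT 1 h, 14 to 21 and 0 to 3 at WT 10 h, 4 to 12 and 1 to 6 in the RAD21 line, 3 to 13 and 1 to 2 in it at 0 h, and for H3K4me1 2 to 4 and 4 to 8 at 1 h and 0 to 2 and 2 to 10 at 10 h.

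Same-numbered lists did not deviate together (r of -0.0501 to 0.0453 over 10 pairs of H3K27ac groups and 8e-04 to 0.0074 over 3 of H3K4me1), so the numbers were not taken to pair the samples. A replicate block left the window counts at 7 higher and 3 lower at WT 1 h and changed 1 call of a named region (SSBP4 at WT 10 h, 0.74, limma adjusted p = 0.0466).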
